A study of Homo sapiens with 4 samples.

Results

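CXCL8 (interleukin-8) and its relatives CXCL1, CXCL2, CXCL3, CXCL5 and CXCL6 are the chemokines that draw neutrophils out of the blood. These 6 genes were taken by their symbols from the 36602 genes of the deposited matrix, and all 6 were found. The cells were OVCAR5, an established human ovarian carcinoma cell line, cultured without or with supernatant taken from a coculture of tumor cells and T cells. Per the labels, the 24 conditions were every pairing of 4 exposure times, 2, 6, 12 and 24 h, with 6 supernatant levels: undiluted, diluted 5, 25, 125 or 625 times, and none. All conditions were tagged with hashtag antibodies, pooled and sequenced together with a droplet method that reads the 3′ ends of RNA in single cells, and each condition was 1 culture. No genetic change and no separate cytokine is named for any condition.

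A cell was assigned to a hashtag sample by its leading pair of tags (HTO3/HTO10, for example). Which pair of tags marks which time or dilution is not given in the sources used here. Levels are therefore described over 24 hashtag samples, which are not replicates, and no test between conditions was made. Of 10660 barcodes, 6408 passed the filters on cells (60.1%) and 5298 of these had a hashtag sample (82.7%). Hashtag samples held between 137 and 272 cells and between 1863154 and 3904112 UMIs, unique molecular identifiers that each stand for 1 captured RNA molecule. A level is given as CPM, the UMIs of a gene in each 1e6 UMIs of the hashtag sample, and 3 UMIs corresponded to 0.768 to 1.61 CPM. HTO3/HTO9 was the shallowest sample, with a median of 9389 UMIs per cell, and had the highest median of mitochondrial UMIs, 13.8%. Levels and counts of genes that it decides are therefore also given without it. HTO5/HTO8 was next on both measures (10714 UMIs and 12.8%). Several of the levels given without HTO3/HTO9 come from HTO5/HTO8. Of 8 epithelial markers, 7 had at least 50 UMIs in the pool. They ran from KRT18 with 115942 UMIs to PAX8 with 221 and CDH1 with 170, and MUC16 had 4. Of 5 mesenchymal markers, 1 did (VIM, 164613 UMIs, more than any epithelial marker), and COL1A2, DCN and LUM had none. Of 9 T cell markers, 1 did (TRBC2, 201 UMIs), and CD3E, CD3G, CD2 and PTPRC had none. Of 7 myeloid and neutrophil markers, 2 did (S100A9, 3012 UMIs, and CD14, 112 UMIs), and FCGR3B had none. The summed level ran from 6.98 to 0 CPM for the T cell markers and from 132 to 0.840 CPM for the myeloid and neutrophil markers, and its part in the results was not tested.

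The 6 chemokines share a glutamate-leucine-arginine (ELR) motif in front of their first cysteines, through which they bind CXCR2 on neutrophils. CXCL8 and CXCL6 also bind CXCR1. In epithelial cells their genes are switched on by NF-κB, the transcription factor that acts downstream of tumor necrosis factor and interleukin-1, and their messenger RNAs are short-lived. Carcinoma cells often secrete CXCL8, which also acts on blood vessels. Interferon gamma, the chief cytokine of activated T cells, is instead known for inducing CXCL9, CXCL10 and CXCL11, which bind CXCR3 and draw T cells.

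The 6 genes lie together on chromosome 4. In GENCODE 29 on GRCh38, matched by gene identifier, they spanned 359 kb from CXCL8 (ENSG00000169429, chr4:73740506-73743716, plus strand) to CXCL2 (ENSG00000081041, chr4:74097035-74099293, minus strand). CXCL6 and CXCL1 are also on the plus strand, and CXCL5 and CXCL3 on the minus strand. The span holds 9 protein-coding genes, all with a row in the matrix, and the other 3 are PPBP, PF4 and PF4V1, chemokine genes of platelets. PF4 and PF4V1 had no UMI in any hashtag sample, and PPBP had 2 in all. The 4 abundant chemokines were found at both ends and in the middle of the cluster, interleaved with genes at or near 0.

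Promoter sequences of all 6 genes were available in RefSeq on GRCh38.p14, and the stretch around the shared NF-κB-type element is shown because it is the one searched element that all 6 hold. Each line gives 30 bases, 5′ to 3′ on the gene's own strand, with the letters GGAATTTCC in capitals.
CXCL8: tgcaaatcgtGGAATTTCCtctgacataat
CXCL1: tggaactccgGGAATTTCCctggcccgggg
CXCL2: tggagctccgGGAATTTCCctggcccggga
CXCL3: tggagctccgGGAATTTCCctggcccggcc
CXCL5: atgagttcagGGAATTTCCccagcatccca
CXCL6: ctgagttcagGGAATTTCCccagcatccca
They lie at chr4:73740468-73740497 (CXCL8), chr4:73869305-73869334 (CXCL1) and chr4:73836579-73836608 (CXCL6) on the plus strand. On the minus strand they lie at chr4:74099253-74099282 (CXCL2), chr4:74038748-74038777 (CXCL3) and chr4:73998748-73998777 (CXCL5). The element began between 77 and 91 bases before the RefSeq start of each gene. GENCODE 29 places the elements of CXCL8 and CXCL1 outside any gene, and those of CXCL2, CXCL3, CXCL5 and CXCL6 inside an exon of the longer transcripts it lists for them. GGAATTTCC, searched on both strands of the 250 bases before the start, was present in 6 of 6 members and in 145 of 35116 promoters (0.413%). It was searched as a fixed run of letters and not as a general NF-κB motif. The members are related genes, some with near-identical promoters, so the 6 matches are not independent.

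Over 100 bases aligned on that element, CXCL1 and CXCL3 were identical at 92 bases, CXCL1 and CXCL2 at 76, and CXCL5 and CXCL6 at 93. CXCL8 was identical to the others at 26 to 35 bases. The 9 bases of the element count in each of these values. The AP-1 motif TGANTCA was present in CXCL8 alone among the members and in 6.57% of all promoters, and TATAAA was likewise in CXCL8 alone and in 10.7% of promoters. TTCNNNGAA, the letters bound by STAT factors, was present in CXCL5 and CXCL6, where it overlapped the NF-κB-type element, and in 6.57% of promoters. A match is a run of letters and not evidence of binding, and none was measured in these cells.

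The sequenced read of 54 bases could be shared between relatives. Of the 447 stretches of 54 bases in the last 500 bases of CXCL1, 38 also occurred exactly in CXCL2 and 112 did with at most 2 mismatches. CXCL8, CXCL3, CXCL5 and CXCL6 had no exact stretch in another gene of GENCODE 29. How the authors' counting treated such reads is not given in the sources used here, so values of CXCL1 and CXCL2 carry that uncertainty and the others much less.

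CXCL8 was the member with most UMIs. It had 817 CPM in HTO3/HTO10 (3131 UMIs) as the highest of 24 hashtag samples, a median of 65.8 CPM, and 7.14 CPM in HTO4/HTO8 (17 UMIs) as the lowest. The ratio of highest to lowest was 114 (95% interval 71.3 to 197, counting error only). HTO2/HTO10 followed with 774 CPM, HTO8/HTO10 with 502 CPM, HTO4/HTO10 with 437 CPM and HTO9/HTO10 with 433 CPM. These 5 samples were separated from the other 19 by the widest gap of the gene, between 433 CPM in HTO9/HTO10 and 232 CPM in HTO3/HTO9. Of the 23 pairs of neighbours in the order, 8 differed beyond counting error, most of them near the top, and from HTO5/HTO9 (36.7 CPM) downwards no neighbours did. The ends of that stretch were still apart, with intervals of 30.8 to 43.3 CPM in HTO5/HTO9 and 4.16 to 11.4 CPM in HTO4/HTO8.

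CXCL1, also called GRO-alpha, was highest in another sample and divided the samples more sharply. It had 401 CPM in HTO2/HTO10, a median of 75.0 CPM, and 4.20 CPM in HTO4/HTO8, a ratio of 95.5 (51.8 to 199). Its widest gap took 0.270 of its log2 range and left 13 samples at 58.1 CPM or more and 11 at 17.5 CPM or less. After HTO2/HTO10, the order ran through HTO4/HTO9 (331 CPM), HTO9/HTO10 (314 CPM), HTO3/HTO10 (309 CPM) and HTO3/HTO9 (308 CPM), which did not all differ from one another beyond counting error. In HTO4/HTO9, second for CXCL1, CXCL8 had 87.6 CPM.

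CXCL2, or GRO-beta, had 382 CPM in HTO2/HTO10, a median of 50.3 CPM and 3.67 CPM in HTO2/HTO9, a ratio of 104 (59.3 to 201). CXCL3, or GRO-gamma, had 503 CPM in HTO3/HTO9, a median of 43.7 CPM and 6.30 CPM in HTO4/HTO8, a ratio of 79.8 (48.2 to 143). HTO3/HTO9 is the sample of lowest depth, and without it the ratio of CXCL3 was 51.6. CXCL3 had 325 CPM in HTO4/HTO9 and 311 CPM in HTO2/HTO10, the samples next in order. For each of CXCL1, CXCL2 and CXCL3, 7 of 23 pairs of neighbours differed beyond counting error. The intervals of the 4 ratios overlapped, and their order changed with the cells used: without the top 1% of cells of each sample, the ratio was 137 for CXCL8 and 170 for CXCL2.

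CXCL5 and CXCL6, the neutrophil attractants also called ENA-78 and GCP-2, were scarce. CXCL5 had 59 UMIs in all, 0 in 11 hashtag samples, and at most 4.85 CPM (13 UMIs, HTO5/HTO8). HTO4/HTO9 with 12 UMIs and HTO3/HTO9 with 10 were next, so that these 3 samples held most of its UMIs. CXCL6 had 142 UMIs, 0 in 4 samples, and at most 8.53 CPM (32 UMIs, HTO8/HTO10), followed by 5.17 CPM in HTO3/HTO9. With a stricter filter on cells (2000 genes or more and no more than 10% mitochondrial UMIs), the highest levels were 21.3 CPM for CXCL5 (7 UMIs) and 33.5 CPM for CXCL6 (11 UMIs), both in the 30 cells then left in HTO3/HTO9. Without the KRT81-high cells described below, the highest level of CXCL6 was 5.22 CPM. No fold is given for either gene, since the lowest samples had no UMI.

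All 4 members with a mean of at least 20 CPM ranged 4-fold or more on the scale of log2(CPM + 10), as did 238 of 5767 genes of that level (4.13%). Without HTO3/HTO9, all 4 again did, as did 168 of 5765 genes (2.91%). CXCL5 and CXCL6 did not reach the level and were not counted. Among the 5767 genes the range of CXCL8 (5.59 on the log2 scale) was ninth, that of CXCL3 (4.98) was number 16, that of CXCL1 (4.85) number 19 and that of CXCL2 (4.84) number 20. The median range was 4.92 for the 4 members and 0.74 for all 5767 genes.

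**Figure D1:**
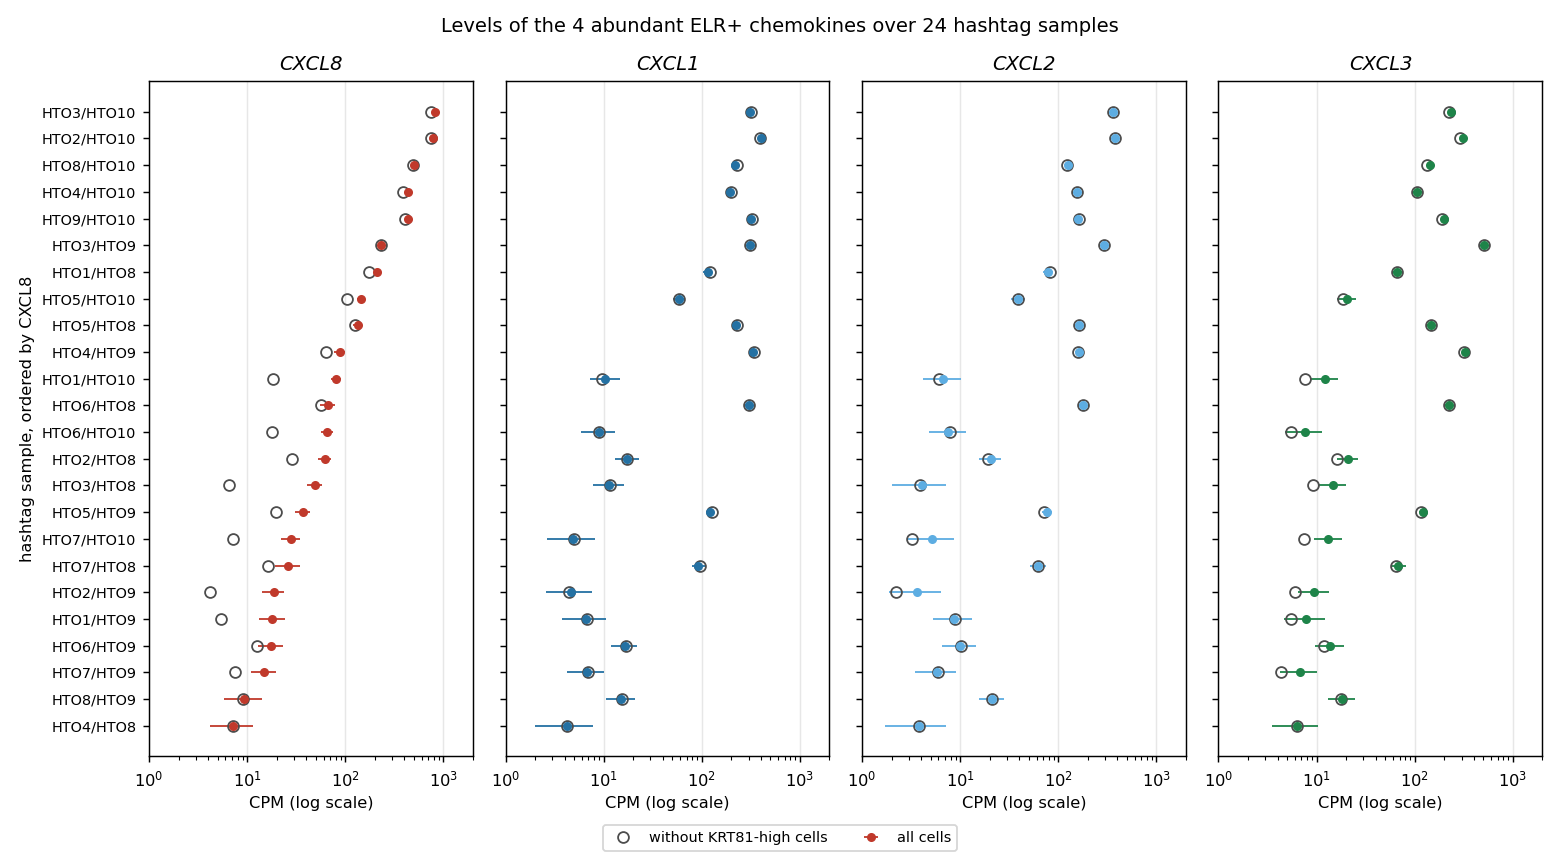
Level of CXCL8, CXCL1, CXCL2 and CXCL3 in each of 24 hashtag samples, in CPM on a log axis, with samples ordered by CXCL8 in every panel. Filled points are all cells with exact Poisson 95% intervals (counting error only), and open circles are the same samples without KRT81-high cells. CXCL8 lies between 817 and 7.14 CPM, the order of CXCL1, CXCL2 and CXCL3 departs from it in the middle of the panels, and the open circles of CXCL8 lie left of the filled points in most of the low samples, but not in HTO4/HTO8 and hardly in HTO8/HTO9.

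A small group of cells held much of the CXCL8 of several middle and low samples. Cells with at least 500 CPM of KRT81, a hair-type keratin, made up 139 of 5298 cells (2.62%), and KRT81 had the largest excess variance of 10125 genes in the pool. The threshold cuts a range, but few cells lay near it: 9 cells had 250 to 500 CPM of KRT81 and 15 had 500 to 1000 CPM. Of the other cells, 92.8% had no KRT81 UMI. KRT81-high cells were found in 23 of 24 hashtag samples, with at most 11 in a sample and none in HTO4/HTO8, and 99 further KRT81-high cells had no hashtag sample. A hashtag sample was found for 58.4% of the kept KRT81-high cells, against 82.7% of all kept cells, and what part doublets have in this group was not tested.

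CXCL8 stood at 974 CPM in KRT81-high cells and 178 CPM in other cells, a ratio of 5.47 (5.24 to 5.72). It was higher in KRT81-high cells in 16 of 16 hashtag samples with at least 5 of them. In KRT81-high cells it ranged from 2896 CPM in HTO3/HTO10 to 204 CPM in HTO7/HTO8, with a median of 859 CPM over those 16 samples. It was thus abundant in these cells also where other cells had little. In HTO3/HTO8, for example, CXCL8 had 832 CPM in 8 KRT81-high cells and 6.58 CPM in the other cells. Median depth was 17283 UMIs in KRT81-high cells and 13156 in other cells. After each cell was thinned to 3000 UMIs, 65.9% of 138 KRT81-high cells and 22.6% of 5123 other cells had a CXCL8 UMI.

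The other members did not share one pattern in these cells. CXCL6 had 43.2 CPM in KRT81-high cells and 0.537 CPM in other cells, a ratio of 80.4 (55.0 to 120). Of its 142 UMIs, 104 (73.2%) lay in KRT81-high cells. A CXCL6 UMI was found in 30.2% of the 139 KRT81-high cells and in 0.562% of other cells. CXCL3 had 233 CPM in KRT81-high cells and 106 CPM in other cells, higher in 15 of 16 samples. CXCL2 had 101 CPM in KRT81-high cells and 103 CPM in other cells, with a ratio of 0.983 (0.861 to 1.12). CXCL1 had 52.8 CPM in KRT81-high cells and 138 CPM in other cells, a ratio of 0.384 (0.320 to 0.457), and was lower in KRT81-high cells in 13 of 16 samples. All 59 UMIs of CXCL5 lay in other cells, but the interval of its ratio reached 1.90, so these few UMIs do not set CXCL5 apart. CXCL1 and CXCL3 thus lay on opposite sides in this comparison.

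KRT81-high cells held 15.7% of all CXCL8 UMIs, but between 87.2% (HTO3/HTO8) and 0% (HTO4/HTO8) of those of a sample, and at least 50% in 8 samples. Without them, CXCL8 had 754 CPM in HTO2/HTO10, a median of 24.2 CPM and 4.15 CPM in HTO2/HTO9. The ratio of highest to lowest was then 182 (106 to 342), against 114 over all cells. HTO1/HTO10, with 80.3 CPM over all cells, had 18.1 CPM without them, and HTO6/HTO10, with 65.4 CPM, also had 18.1 CPM. In the 8 samples in which KRT81-high cells held at least 50% of the CXCL8 UMIs, the level of the whole sample was therefore not that of most of its cells. Other samples of the middle and low range changed to different extents. HTO5/HTO9 had 36.7 CPM over all cells and 19.9 CPM without them, and HTO7/HTO8 had 25.8 and 16.4 CPM. The change was smaller in HTO6/HTO8 (66.1 and 56.4 CPM) and HTO8/HTO9 (9.31 and 8.98 CPM), and HTO4/HTO8 held none.

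**Figure D2:**
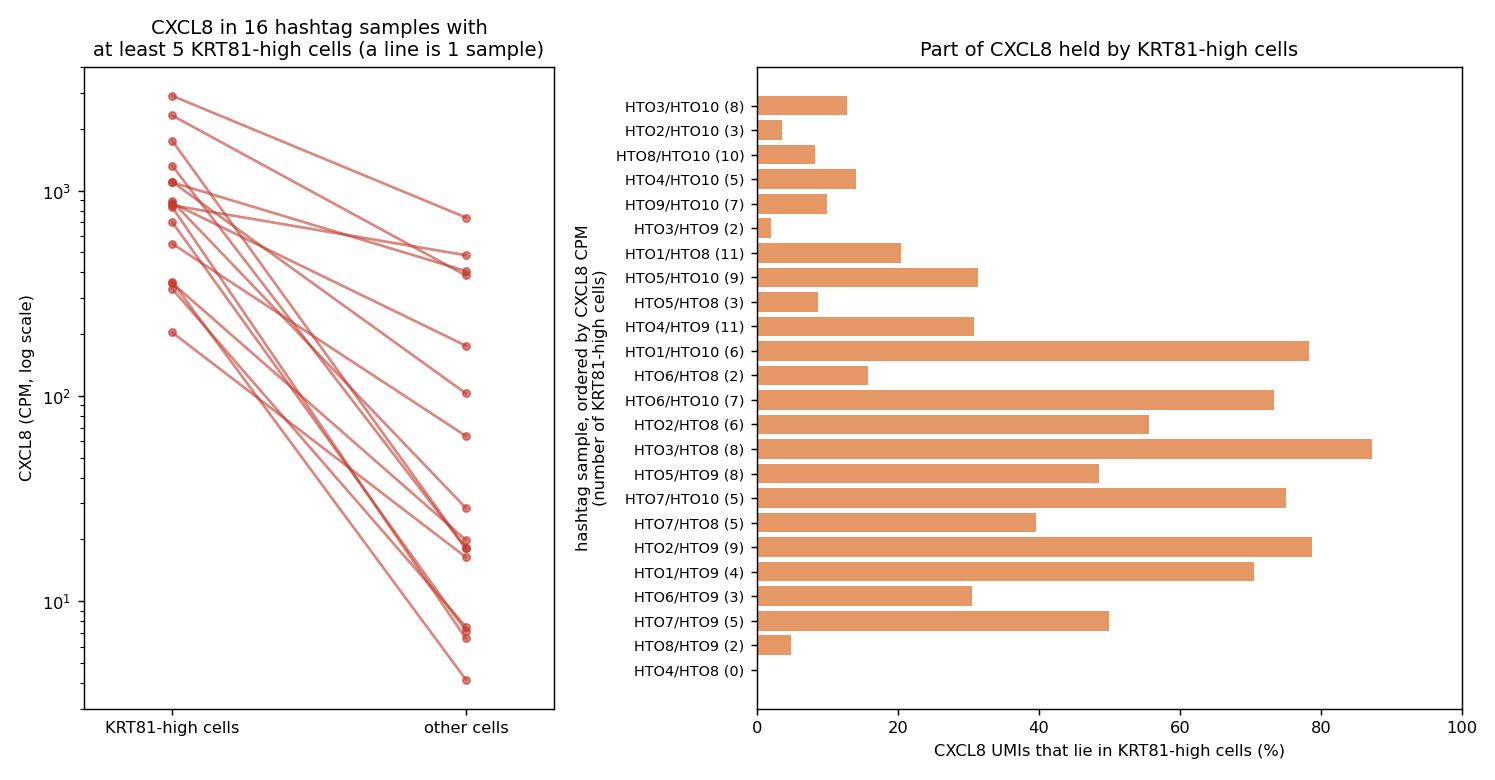
CXCL8 in KRT81-high cells, those with at least 500 CPM of KRT81. The left panel joins the CXCL8 level in KRT81-high cells and in other cells, in CPM on a log axis, for each of the 16 hashtag samples with at least 5 KRT81-high cells, and all 16 lines slope down to the right. The right panel gives the percent of the CXCL8 UMIs of each sample that lay in KRT81-high cells, with their number in brackets, from 0% in HTO4/HTO8 to 87.2% in HTO3/HTO8.

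The mixture of neutrophil chemokines differed between hashtag samples. Over the pool, CXCL8 gave 36.9% of the 40514 UMIs of the 6 members, CXCL1 24.3%, CXCL3 19.8%, CXCL2 18.5%, CXCL6 0.350% and CXCL5 0.146%. UMIs at the 3′ end need no scaling by transcript length, although capture can differ between genes. Summed over the members, the level was 1871 CPM in HTO2/HTO10 at the highest, 255 CPM at the median and 21.4 CPM at the lowest. CXCL8 was the most abundant member in 17 samples, CXCL1 in 5, CXCL2 in 1 and CXCL3 in 1.

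The share of CXCL8 ran from 72.2% in HTO1/HTO10 (67.3 to 76.7) to 8.57% in HTO6/HTO8. It was 50% or more in 8 samples and under 20% in 7. The upper end rested on KRT81-high cells: without them HTO1/HTO10 had 43.8% (35.2 to 52.8), only HTO8/HTO10 reached 50% (50.04%), and CXCL8 was the most abundant member in 12 samples. The lower end did not: 7 samples stayed under 20%, down to 5.89% in HTO5/HTO9 and 7.37% in HTO6/HTO8. In HTO6/HTO8, over all cells, CXCL1 had 301 CPM, CXCL3 223 CPM and CXCL2 177 CPM beside 66.1 CPM of CXCL8.

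**Figure D3:**
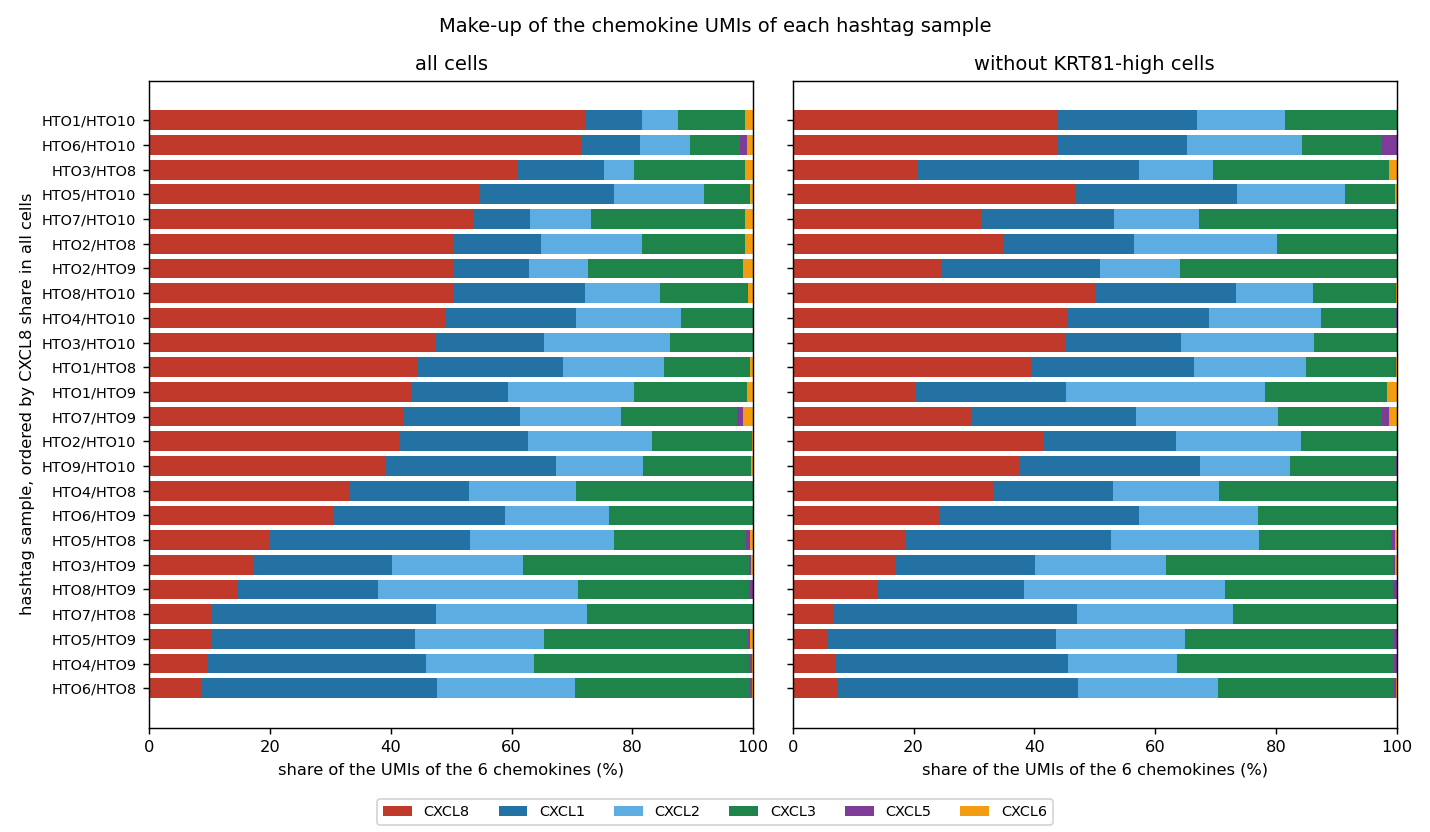
Make-up of the UMIs of the 6 neutrophil chemokines in each of 24 hashtag samples, in percent, over all cells (left) and without KRT81-high cells (right), with samples in the same order by the CXCL8 share over all cells. CXCL8 takes 72.2% at the top and 8.57% at the bottom of the left panel, and without KRT81-high cells its largest share is 50.04%.

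Levels of CXCL1, CXCL2 and CXCL3 followed one another closely, and CXCL8 followed them less. Spearman's rho over the 24 hashtag samples, which share 1 pool and 24 conditions built from common times and dilutions, was 0.963 for CXCL1 and CXCL3, 0.959 for CXCL1 and CXCL2, and 0.936 for CXCL2 and CXCL3. For CXCL8 it was 0.782 with CXCL1, 0.757 with CXCL2 and 0.737 with CXCL3. Because CXCL1 left a wide gap, rho was also taken on each side of it. It was 0.907 above (13 samples) and 0.773 below (11 samples) for CXCL1 and CXCL3, and 0.440 above and 0.282 below for CXCL8 and CXCL1. The sides were set by the levels of CXCL1 itself. Below the gap CXCL1 had 53 to 10 UMIs in a sample, and no neighbours differed beyond counting error. The ends of that stretch did differ, with intervals of 13.1 to 22.8 CPM in HTO2/HTO8 and 2.01 to 7.72 CPM in HTO4/HTO8. All samples in which KRT81-high cells held most of the CXCL8 UMIs also lay below the gap. The value of 0.282 therefore cannot show how CXCL8 followed CXCL1 in most cells, and rho by side was not taken without KRT81-high cells. Without KRT81-high cells, the values over 24 samples were 0.877 for CXCL8 and CXCL1, 0.879 for CXCL8 and CXCL2, and 0.957 for CXCL1 and CXCL3. What shared reads add to the value of CXCL1 and CXCL2 was not tested, while CXCL1 and CXCL3 share no exact stretch.

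The ratio of CXCL8 to CXCL1 was 7.71 (5.38 to 11.4) in HTO1/HTO10 and 0.219 (0.181 to 0.265) in HTO6/HTO8. Its interval lay above 1 in 15 samples and below 1 in 6. Over all 24 samples, those with more CXCL10 tended to have lower ratios (rho −0.78, and −0.48 without KRT81-high cells). The rank correlation was −0.80 over the 13 samples above the CXCL1 gap (−0.71 without KRT81-high cells) and −0.39 over the 11 samples below it (−0.26 without KRT81-high cells). The ratio and the gap both use the level of CXCL1, which itself had a rho of 0.758 with CXCL10 over 24 samples, so these values are not independent of it. Above the gap, rho with CXCL10 was 0.20 for CXCL1 and −0.54 for CXCL8. Below it, the values were 0.76 and −0.03. HTO3/HTO10, with a ratio of 2.64, had 135 CPM of CXCL10, and HTO2/HTO10, with 1.93, had 150.1 CPM. HTO6/HTO8, with 0.219, had 3014 CPM of CXCL10, and HTO4/HTO9, with 0.265, had 3186 CPM. The relation is not without exception: HTO3/HTO9 had the most CXCL10, 3896 CPM, and a ratio of 0.754. HTO8/HTO10, with 1156 CPM of CXCL10, had a ratio of 2.30, higher than that of HTO2/HTO10. Without HTO3/HTO9, rho was −0.77 over the other 23.

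**Figure D4:**
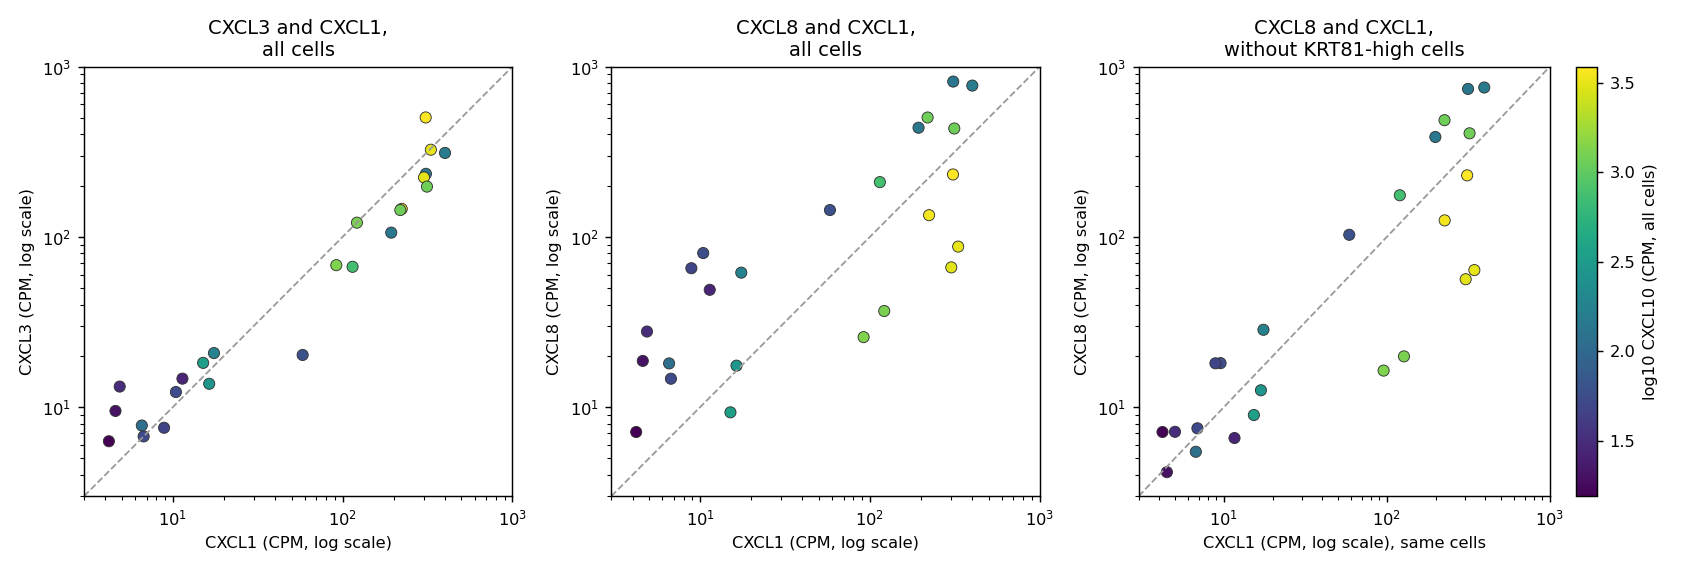
Levels of CXCL3 (left) and CXCL8 (middle, and right without KRT81-high cells) against CXCL1 in 24 hashtag samples, in CPM on log axes, with the dashed line marking equal levels and the colour giving log10 of the CXCL10 level. CXCL3 runs along the line (rho 0.963). CXCL8 has samples of high CXCL1 on both sides of the line. Among samples above the widest gap of CXCL1, those with up to 1156 CPM of CXCL10 lie above the line. Those with 1287 CPM or more lie below it. Most of the low samples of CXCL8 move down when KRT81-high cells are left out.

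CXCL9, CXCL10 and CXCL11, the CXCR3 ligands, had ranges of 6.63, 7.26 and 6.32 on the log2 scale, against 5.59 for CXCL8. Without HTO3/HTO9 the range of CXCL9 was 5.39. CXCL10 had 3896 CPM in HTO3/HTO9, then 3560 CPM in HTO5/HTO8, a median of 165 CPM and 15.5 CPM in HTO4/HTO8. The ratio of CXCL8 to CXCL10 was 6.07 in HTO3/HTO10 and 0.0191 in HTO7/HTO8, a 317-fold difference in their proportion. Samples that held the most CXCL8 were thus not those with the most CXCL10, and rho of CXCL8 was 0.365 with CXCL10, 0.28 with CXCL9 and 0.20 with CXCL11.

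In single cells, CXCL8 was broad in the samples where it was high. Thinned to 3000 UMIs, 206 of 262 cells of HTO3/HTO10 had a CXCL8 UMI (78.6%), against a median of 10.1% over the hashtag samples and 3 of 240 cells of HTO7/HTO9 (1.25%). Without thinning, the highest share was 96.3% in HTO2/HTO10 and the lowest 8.20% in HTO2/HTO9. Thinned shares of CXCL1, CXCL2 and CXCL3 were also highest in HTO2/HTO10, at 55.4%, 58.3% and 53.3% of 240 cells. CXCL1 was seen in 0 of 240 thinned cells of HTO7/HTO9, which allows a share of up to 1.25% of cells with a UMI at this depth. Before thinning, 20 of these 240 cells had one (8.33%). No cell type that should lack these genes was in the pool, so a background share from free RNA was not measured in one.

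The spread of CXCL8 between cells of 1 sample was wider than Poisson sampling gives, for which the variance equals the mean. In thinned cells, KRT81-high cells included, the variance over the mean ran from 4.92 in HTO1/HTO8 to 2.14 in HTO2/HTO10 over 9 samples with at least 50 UMIs, with a median of 3.20 (2.82 without HTO3/HTO9). It ran from 2.90 to 1.39 for CXCL1, from 2.42 to 1.09 for CXCL2 and from 4.33 to 1.39 for CXCL3 (from 3.44 without HTO3/HTO9), over 11 samples each. Over all kept cells, the variance of CXCL8 was 18.3 times that of Poisson sampling, that of CXCL3 9.43 times, that of CXCL1 9.25 times and that of CXCL2 5.98 times. All 4 thus passed 1.5 times, as did 840 of 10125 genes seen in at least 5% of cells (8.3%). These variances include the differences between hashtag samples. CXCL5 and CXCL6 were seen in under 5% of cells and were not counted.

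Members tended to be found in the same cells, with a modest excess. Within hashtag samples, 509 cells had UMIs of both CXCL1 and CXCL3, where the product of the shares gives 355, and the excess was seen in 10 of 10 samples with enough cells. For CXCL8 and CXCL1, 556 cells had both, where the product of the shares gives 462, with an excess in 9 of 9 samples. In HTO3/HTO10 the excess of this pair was small, 107 cells against 105. An excess was not particular to the members. CXCL1 and CXCL10 were together in 694 cells, against 655, with an excess in 12 of 12 samples. CXCL8 and CXCL10 were together in 624 cells, against 602, with an excess in 8 of 11. KRT81-high cells are included in these counts. All 4 abundant members were seen together in 18.7% of thinned cells of HTO3/HTO10, 17.9% of HTO2/HTO10 and 3.33% of all 5261 cells.

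The make-up also differed cell by cell. Among cells with at least 10 UMIs of the members, the median share of CXCL8 was 60.0% in HTO5/HTO10 (26 cells, quartiles 27.6% and 81.8%), 46.9% in HTO3/HTO10 (225 cells), 38.9% in HTO2/HTO10 (217 cells), 7.69% in HTO3/HTO9 (110 cells) and 0.833% in HTO5/HTO9 (38 cells). KRT81-high cells are included. HTO5/HTO10 had 9 of them, and its summed share of CXCL8 was 54.8% over all cells and 46.8% without them. The low share of CXCL8 in HTO3/HTO9 and HTO5/HTO9 was therefore found in the typical chemokine-rich cell and not only in the sum.

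Genes around the neutrophil chemokines were read from lists of its receptors, inducers and regulators. Of 8 chemokine receptors none reached the level tested, 4 had no UMI, and CXCR4 had the most with 24 UMIs in the pool. Of the receptors of the 6 chemokines, CXCR2 had 5 UMIs and CXCR1 had none. Of 6 tested receptors of inducing cytokines, 2 ranged 4-fold or more, and none did without HTO3/HTO9. They were TNFRSF1B, a receptor of tumor necrosis factor (168 CPM in HTO3/HTO9, then 133 CPM in HTO6/HTO8, and 27.3 CPM in HTO2/HTO9), and IFNGR2, a chain of the interferon gamma receptor (141 CPM in HTO3/HTO9, then 118 CPM in HTO5/HTO8, and 26.4 CPM in HTO7/HTO10). The main receptor TNFRSF1A stayed between 138 CPM in HTO6/HTO8 and 85.8 CPM in HTO1/HTO10.

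Of 5 tested NF-κB subunits, 1 ranged 4-fold with and without HTO3/HTO9, NFKB2, with 83.6 CPM in HTO3/HTO9, then 65.0 CPM in HTO5/HTO8, and 6.25 CPM in HTO7/HTO10. Of 9 tested inhibitors and feedback genes of the pathway, 7 did so with and without that sample, with a median range of 3.12 over the 9. NFKBIA, the inhibitor that NF-κB itself induces, had 1435 CPM in HTO2/HTO10 and 34.7 CPM in HTO7/HTO10. TNFAIP3 (A20), which ends the signal, had 233 CPM in HTO2/HTO10 and 3.98 CPM in HTO2/HTO9. HTO2/HTO10 was thus highest for these 2 as well as for CXCL1 and CXCL2. Other feedback genes were highest elsewhere. BIRC3, an NF-κB target that limits cell death, had 625 CPM in HTO3/HTO9, then 471 CPM in HTO5/HTO8, and its lowest level in HTO4/HTO8. TNIP1, a partner of A20, had 606 CPM in HTO5/HTO8 and 51.1 CPM in HTO7/HTO10, and NFKBIE, another inhibitor, had 92.1 CPM in HTO9/HTO10.

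Of 8 tested AP-1, C/EBP and HIF factors, 3 ranged 4-fold, and 2 did without HTO3/HTO9. CEBPD had 294 CPM in HTO2/HTO10 and 23.3 CPM in HTO7/HTO10. JUNB had 84.4 CPM in HTO3/HTO9, then 71.9 CPM in HTO2/HTO10, and 5.46 CPM in HTO4/HTO8. CEBPB, which no longer ranged 4-fold without HTO3/HTO9, had 262 CPM there, then 162 CPM in HTO8/HTO10, and 43.8 CPM in HTO7/HTO10. Of 7 tested factors of messenger RNA decay, 1 did, ZC3H12A (Regnase-1), which cuts inflammatory messenger RNAs. It had 76.5 CPM in HTO2/HTO10 and 0.840 CPM in HTO4/HTO8, and without HTO3/HTO9 its mean lay under 20 CPM and it was not tested.

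Among cytokines that act on neutrophils or in inflammation, 6 of 7 tested ranged 4-fold, and 4 of 5 tested did without HTO3/HTO9. IL32 had 1412 CPM in HTO3/HTO9, then 1105 CPM in HTO5/HTO8, and 9.80 CPM in HTO2/HTO9. IL1B had 275 CPM in HTO3/HTO9, then 223 CPM in HTO9/HTO10, and 2.52 CPM in HTO4/HTO8. CSF3, the growth factor of neutrophils, had 242 CPM in HTO3/HTO9, then 94.1 CPM in HTO5/HTO8, and no UMI in 4 samples. All 3 tested of the other chemokines (CCL2, CCL5 and CCL20), all 5 tested acute-phase genes and all 11 tested interferon gamma response genes also ranged 4-fold, with and without HTO3/HTO9. These counts stand beside 4.13% of all genes, or 2.91% without HTO3/HTO9, and describe the lists without a test. Over 24 samples, 3 of 12 listed other chemokines and 7 of 10 listed cytokines reached the mean of 20 CPM. A scarce gene reaches that mean only through the samples where it is high, as did CCL20 (mean 22.9, median 2.87 CPM) and CSF3 (mean 23.9, median 1.80 CPM). For such genes a wide range follows largely from the filter.

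Genes with levels most like CXCL8 over the 24 samples were CCL20, a chemokine for CCR6-bearing lymphocytes (rho 0.937), NABP1 (0.919), TIFA, an adaptor of NF-κB signalling (0.915), IL1B (0.907), TRIP10 (0.897), TNFAIP3 (0.897), RPS6KA3 (0.886), PPP1R15B (0.883), CD44 (0.878) and SAMD4A (0.878). Without KRT81-high cells, CCL20 led again (0.951), followed by TNFAIP3, IL1B, IRF1, NFKBIA, IL1A, NFKBIE, GCNT2, TIFA and IER5, and 4 of the 10 genes were the same (CCL20, IL1B, TIFA and TNFAIP3). Without HTO3/HTO9, 8 of the 10 were the same.

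For the other members, the genes most like each are given leaving the 6 chemokines aside, since CXCL3 and CXCL2 came before any other gene for CXCL1. CXCL1 was then most like BIRC3 (0.934), ZC3H12A (0.931) and NFKBIA (0.929). CXCL2 was most like NFKBIZ, an NF-κB cofactor (0.965), ZC3H12A (0.963) and JUNB (0.953), and CXCL3 like ZC3H12A (0.937), LAMB3 (0.935) and NFKBIZ (0.934). ZC3H12A, among the 3 genes outside the family most like each of CXCL1, CXCL2 and CXCL3, had a rho of 0.742 with CXCL8. Without HTO3/HTO9, 2 of the 3 genes were the same for each of these 3 members, and ZC3H12A was not ranked because of its mean level. For the scarce members, CXCL6 was most like G0S2 (0.902), RNF24 (0.834) and GARS (0.833), and CXCL5 like GFPT2 (0.781), IL10RB (0.766) and SPAG9 (0.764), on few UMIs. KRT81-high cells held 73.2% of the CXCL6 UMIs, and the genes most like CXCL6 are not given without these cells.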

How the data were processed

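The libraries, 2 of gene expression and 2 of hashtags, come from 1 pool. The deposited matrix holds raw UMI counts per gene and hashtag for each barcode. Per the file headers the authors used Cell Ranger 5.0.1, and per the submitters' processing notes Cell Ranger 2.1.1 on GRCh38. The annotation version is not given in the sources used here. No barcode was listed more than once. A barcode was kept if it had 1000 genes or more and no more than 20% of UMIs from mitochondrial genes, and was assigned to the pair of leading tags where the second was at least 3 times the third. Doublets were not removed beyond this. Counts were summed per hashtag sample and scaled to CPM. Intervals of 95% are exact Poisson, conditional binomial or binomial and cover counting error only. Ranges use log2(CPM + 10) in genes whose mean reached 20 CPM. Single cells were thinned to 3000 UMIs, which left 5261 of 5298. Alternatives used other filters, margins, pseudocounts, depths and TMM scaling (edgeR 4.0.16, R 4.3.3). The other steps used Python 3.11.15, numpy 2.4.6 and scipy 1.17.1, and the range, intervals and likeness were checked on counts drawn from known folds. Named genes are the members, the 10 genes most like CXCL8 and the 3 most like each other member by Spearman's rho, the 3 of highest mean and the 3 of widest range in each list, and KRT81. CXCR1 and CXCR2 were named as receptors of the members, and NFKBIE, CXCR4 and genes most like CXCL8 without KRT81-high cells under the same measures. The members, lists, thresholds and the KRT81 limit were chosen with earlier results of these data known.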

Additional observations from a re-analysis of the deposited data

Results flagged for a closer look

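The barcodes outside the filters on cells also held the chemokines. These 4252 barcodes, with a median of 2172 UMIs, had 114 CPM of CXCL8, 99.4 CPM of CXCL1, 77.2 CPM of CXCL2 and 89.6 CPM of CXCL3, against 204, 135, 103 and 110 CPM in the kept cells with a hashtag sample. All lie above the limit that a count of 0 allows, and no control without cells was part of the data used here. By hashtag sample, CXCL8 of the failing barcodes was 621 CPM in HTO2/HTO10 at the highest and 14.0 CPM in HTO6/HTO9 at the lowest, and it followed the kept cells of the same tags with a rho of 0.90 over 24 samples. It was lower in the failing barcodes in 16 of 24 samples and higher in 8. In HTO4/HTO8, the lowest sample among kept cells with 7.14 CPM, the 119 failing barcodes had 32.0 CPM on 11 UMIs. Barcodes with enough genes but too many mitochondrial UMIs had 127 CPM of CXCL8, and those with too few genes had 96.4 CPM. What these barcodes hold was not tested.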

How the results depend on the processing

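The highest-over-lowest ratios of CXCL8, CXCL1, CXCL2 and CXCL3 came under the alternatives run to between 51.6 (CXCL3 without HTO3/HTO9) and 196 (CXCL2 with the stricter filter described below, which gave 136 for CXCL8), and their order changed. All 4 members ranged 4-fold under each setting that tested them, while the count of genes doing so, 238, was 402 when 1 CPM was added before the log and 82 when 50 CPM was added, 168 of 5765 (2.91%) without HTO3/HTO9, 311 of 5846 (5.32%) with the stricter filter, and 94 of 1567 genes averaging 100 CPM or more, where 3 members were tested. The share of cells with a CXCL8 UMI depends on depth: in HTO3/HTO10 it was 59.8% at 1500 UMIs and 92.2% at 5000 UMIs, and in HTO7/HTO9 4.64% at 5000 UMIs. The share of CXCL8 among the members' UMIs in HTO1/HTO10 was 78.6% in cells of 2000 genes or more with no more than 10% mitochondrial UMIs, 60% without the top 1% of cells and 43.8% without KRT81-high cells. In HTO6/HTO8 it was 12.5% with the stricter filter, which kept 2225 cells and left 30 in HTO3/HTO9. The settings without HTO3/HTO9, and those without KRT81-high cells for shares, make-up and likeness, were added after the data were seen. Of the recomputed values, 91 were classed as the same as the reported value and 10 as moved. Among those that moved were the highest levels of CXCL5 and CXCL6 (21.3 and 33.5 CPM with the stricter filter). No interval is given here for rho or for counts of members. The class of same values includes rho of CXCL8 and CXCL1, 0.782 over all cells and 0.877 without KRT81-high cells. No paired analysis was possible because no label ties a tag pair to a condition and no test was made. Counts of 17 UMIs or fewer set the lowest levels, so the ratios have wide intervals.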
